A study of Mus musculus with 8 samples.

Results

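Cytosolic ribosomal protein genes encode the protein part of the ribosome, the machine that translates messenger RNA. They were taken from the array's annotation by symbol, as every Rpl or Rps gene with a number and at most a short suffix. Rplp0, Rplp2 and Rpsa were added, and S6 kinases and symbols marked -ps as pseudogenes were left out. The RefSeq gene type was not used to choose them, and it was not protein-coding for every one of them. Of the 18193 genes named by at least 1 probe set with a single symbol, 49 were such genes, 26 of the large and 23 of the small ribosomal subunit, read by 105 probe sets. Each gene was read at the probe set with its highest mean signal over all arrays. Another 36 protein-coding genes with matching RefSeq symbols had no probe set with a single symbol and were not analysed here.

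RNA from mouse retina had been hybridised to 8 arrays, 1 sample each. The 4 control samples came from freshly dissected retina and carry the time 0 d. The 4 injected samples came from retina after an injection, which the labels call a compound-based treatment. Strain, age, compound, dose and interval are not given in the labels, and no sham-injected group was compared, so the compound, the injection and the handling of the tissue cannot be told apart. Whether the samples of a group came from separate animals is not stated either, so the spread between samples may be partly technical.

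Each ribosome is built from a large subunit, which joins amino acids, and a small subunit, which reads the message, and nearly every ribosomal protein is present once per ribosome. Their messages are among the most abundant of any cell. Most begin with an unbroken run of pyrimidines, the 5' terminal oligopyrimidine (TOP) tract, through which mTOR signalling and the RNA-binding protein Larp1 control their translation, so that protein output can change without a change in message level. An array measures the message level only.

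Pyrimidine runs were counted in the sequence around each start site, which the choice of genes did not use. RefSeq start sites (GRCm38.p6) were given for 43 of the 49 genes, 51 starts in all, and windows of 40 bases, 20 before the start and 20 from it on, were read 5' to 3' on the gene's strand. A run of at least 8 pyrimidines (C or T) was held by 20 of the 51 windows, or 39.2%, against 16% of all 32851 mouse starts in the same table. Most of the members' windows thus held no such run, and some runs lay before the start and not at it, such as those of Rpl39 and Rps25, which began at position -20. Runs of at least 8 purines, which are pyrimidine runs of the other strand, were held by 3.92% of the members' windows and 17.7% of all windows. The letters CTTT, the core of many TOP tracts, occurred in 29.4% of the members' windows and 15.9% of all, and their reverse complement AAAG in 11.8% and 15.2%. A match is a description of the letters, and RefSeq starts can lie some bases from the true start. The windows below were chosen to show 3 of the longest tracts, 4 members with tracts that are described later, and Rps15, which holds no run of 8 and is the member with the smallest p of this comparison. Capitals mark the longest pyrimidine run.
Rpl7a (chr2:26910787-26910826, plus strand): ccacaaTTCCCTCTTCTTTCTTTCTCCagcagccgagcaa
Rpl27a (chr7:109519175-109519214, plus strand): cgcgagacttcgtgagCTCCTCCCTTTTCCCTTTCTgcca
Rpl35 (chr2:39005112-39005151, minus strand): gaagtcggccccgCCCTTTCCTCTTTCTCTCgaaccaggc
Rpl13a (chr7:45128726-45128765, minus strand): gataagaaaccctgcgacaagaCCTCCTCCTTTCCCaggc
Rps6 (chr4:86857348-86857387, minus strand): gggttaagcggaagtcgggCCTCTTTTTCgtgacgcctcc
Rpl38 (chr11:114668560-114668599, plus strand): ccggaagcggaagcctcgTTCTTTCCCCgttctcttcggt
Rplp2 (chr7:141447631-141447670, plus strand): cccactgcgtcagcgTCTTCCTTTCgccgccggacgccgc
Rps15 (chr10:80292411-80292450, plus strand): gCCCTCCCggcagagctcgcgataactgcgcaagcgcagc
In Rpl7a, Rpl27a and Rpl35 the tract spans the start itself. Among tested members with a start in the table, the median difference between injected and control retina was -0.06 log2 units in the 20 with a run of at least 8 and -0.16 in the 20 without one, given as a description.

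All values below are log2 of quantile-normalised intensity plus 16, and a difference is injected minus control. Probe sets were tested if their mean log2 value over the 8 arrays reached 8.497, the 40th percentile, and 45 of the 49 genes passed, 24 of the large and 21 of the small subunit. Arrays do not allow the level of 1 probe set to be set against that of another, so levels are compared only between samples.

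No cytosolic ribosomal protein gene differed between injected and control retina after adjustment. By limma with Benjamini-Hochberg adjustment over all 27022 tested probe sets, 0 of the 45 tested genes had an adjusted p under 0.05, where 0% of all probe sets did, and the smallest adjusted p of a member was 0.709. At an unadjusted p under 0.05 there were 0 higher and 1 lower, or 2.22% of the members for the latter, against 3.66% of all probe sets higher and 3.33% lower. The groups did not overlap in 1 member, which was lower, against 2.47% of all probe sets higher and 2.6% lower. The members' shares were thus no larger than the background. The median difference over the 45 genes was -0.12, beside -0.02 over all tested probe sets, and 34 of the 45 differences, or 75.6%, were negative, beside 52.4% of all probe sets. No p is given for that lean, since the genes share the same 8 arrays. With each array centred on its median instead of quantile-normalised, the members' median was -0.28 and 88.9% were negative, but the median of all probe sets moved to -0.15, and relative to it the members lay at -0.125, close to the -0.101 of quantile normalisation. Without injected replicate 3 the members' median was -0.06 with 35 of 45 negative, and without control replicate 2 as well it was -0.03, with 29 of 45 negative.

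The size of a change that could have been missed varied by gene. The 95% interval of the difference lay inside 1 log2 unit on both sides, that is within a doubling or halving, for 36 of the 45 genes, and 41 had a difference under 0.5. For 30 genes the difference was smaller than its standard error. The 9 genes with wider intervals included Rps15, Rps19, Rpl38, Rplp0 and Rps26, and for each a change of 1 log2 unit in 1 direction lay inside the interval.

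**Figure D1:**
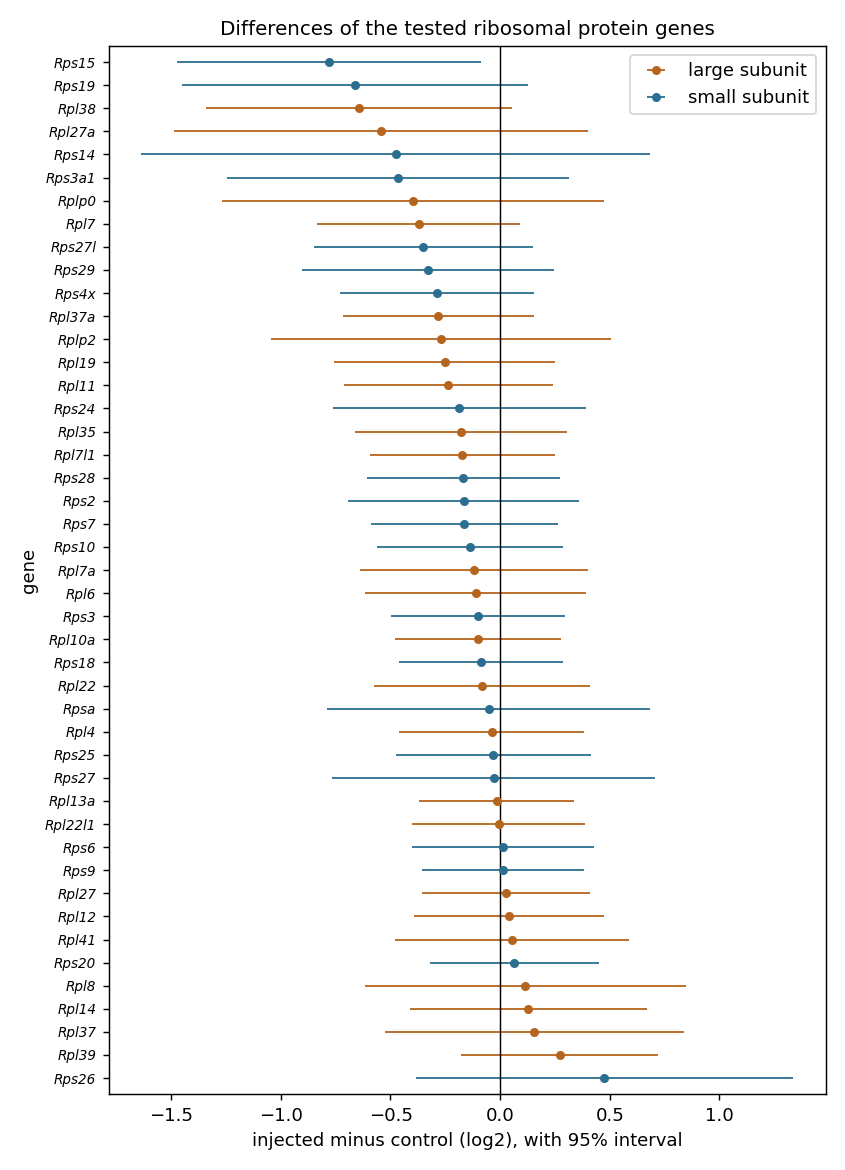
Difference between injected and control retina for the 45 tested ribosomal protein genes, as injected minus control in log2 units, with bars for the 95% interval of the limma fit, 4 samples in each group. Genes are ordered by their difference from -0.78 (Rps15) to 0.48 (Rps26), colours give the subunit, and the interval of Rps15 is the only one that does not reach 0.

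The stalk is the flexible arm of the large subunit that recruits translation factors, with Rplp0 at its base. Rplp0 read 13.04, 13.40, 11.88 and 12.09 in control replicates 1 to 4 and 12.87, 12.25, 12.03 and 11.67 in injected replicates 1 to 4. The controls themselves spanned more than 1 log2 unit and enclosed most of the injected values, and the difference was -0.40 ± 0.39 (SE; limma adjusted p = 0.788). Rplp2, one of the acidic proteins that form the tip, read 14.18, 13.93, 12.83 and 13.20 in the controls and 13.92, 13.11, 12.99 and 13.04 in the injected samples, a difference of -0.27 ± 0.34 (SE; limma adjusted p = 0.832). In both genes control replicates 1 and 2 and injected replicate 1 were the 3 highest arrays. Rpsa, a small subunit protein first described as a laminin receptor, had the same 3 arrays highest, with 14.80, 15.03, 13.74 and 13.76 in the controls and 14.64, 14.22, 14.08 and 14.17 after injection, and a difference of -0.05 ± 0.33 (SE). The control SD of 0.73 for Rplp0, 0.63 for Rplp2 and 0.68 for Rpsa compares with a median control SD of 0.18 over the 45 genes. Rplp0 is often used as a reference gene, and here its 4 controls spread more widely than those of any other tested member.

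Among other large subunit proteins, Rpl38 had the smallest p. This protein is needed for the translation of certain Hox messages in the mouse embryo. It read 15.48, 15.72, 15.21 and 15.39 in the controls and 15.29, 15.06, 13.86 and 15.01 in the injected samples, so that 1 injected sample lay above the lowest control and injected replicate 3 lay far below all others. The difference was -0.64 ± 0.31 (SE; limma unadjusted p = 0.067, adjusted p = 0.725) and -0.33 without injected replicate 3. Rpl7 read 15.42, 15.44, 15.19 and 15.03 in the controls and 15.11, 14.76, 14.55 and 15.16 after injection, with a difference of -0.37 ± 0.21 (SE), and the groups overlapped.

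On the other side of 0, Rpl39, a small protein that lines the exit tunnel for the growing chain, read 10.57, 10.84, 10.74 and 10.45 in the controls and 10.63, 10.95, 11.28 and 10.82 after injection. Its difference was 0.27 ± 0.20 (SE; limma adjusted p = 0.755), and the highest value came from injected replicate 3. Differences were smaller for Rpl14 at 0.13 ± 0.24 (SE), Rpl37 at 0.16 ± 0.30 and Rpl8, which lies close to the catalytic centre, at 0.12 ± 0.33. Rpl14 and Rpl37 were highest on injected replicate 3, at 12.72 and 10.35, and without that array both differences were -0.06. Rpl8 was highest on injected replicate 4 at 14.16 and lowest on injected replicate 2 at 12.73, and its difference turned to -0.14 with arrays centred on their medians.

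Rpl11 belongs to the particle around 5S ribosomal RNA, and free Rpl11 can bind the p53 regulator Mdm2. It read from 13.90 to 14.02 in the controls and 13.76, 13.63, 13.33 and 14.21 after injection, so 3 injected samples lay below all controls and 1 above them (difference -0.24 ± 0.21, SE). Rpl13a, which also takes part in a complex that silences inflammatory messages, had a narrow range at the probe set read here. It ran from 16.58 to 16.69 in the controls and from 16.54 to 16.73 in the injected samples. The difference of Rpl13a was -0.02 ± 0.16 (SE), with a 95% interval from -0.37 to 0.34, although on the deposited scaling, without quantile normalisation, it was 0.26. The other tested probe sets of Rpl13a had control SDs of 0.11, 0.58 and 0.05. The most variable of them ran from 12.78 to 14.09 over the 8 arrays.

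In the small subunit, Rps15 was the 1 member at an unadjusted p under 0.05. Rps15 sits in the head of the subunit near the decoding site and is needed for export of its precursors from the nucleus. It read 11.47, 11.65, 11.10 and 11.06 in the controls and 10.90, 10.71, 10.90 and 9.64 in the injected samples. All injected values lay below all controls, with injected replicate 4 more than 1 log2 unit below the next. The difference was -0.78 ± 0.31 (SE; limma unadjusted p = 0.0315, adjusted p = 0.709), with a 95% interval from -1.47 to -0.09. Without injected replicate 4 it was -0.48 with an unadjusted p of 0.0541, and without control replicate 1 or 2 the unadjusted p was 0.071 and 0.0814. A second probe set for Rps15 was below the filter floor.

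Rps19, the ribosomal protein gene most often mutated in Diamond-Blackfan anaemia, read 11.40, 11.76, 11.41 and 11.46 in the controls and 11.04, 10.76, 9.87 and 11.73 in the injected samples. The injected values of replicates 1 to 3 were below all controls, while replicate 4 was close to the highest control. The difference was -0.66 ± 0.35 (SE; limma unadjusted p = 0.091), it was -0.34 without injected replicate 3, and -0.96 without injected replicate 4, with an unadjusted p of 0.0111. The widest spread of all was in Rps14, a protein of the subunit's platform, whose injected samples ran from 13.07 to 15.78 against 14.45 to 14.89 in the controls.

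Rps26, which contacts the message where it leaves the ribosome, had the largest positive difference at 0.48 ± 0.38 (SE; limma adjusted p = 0.767). It read 13.04, 12.82, 12.09 and 12.54 in the controls and 12.75, 12.75, 14.25 and 12.64 after injection. Only injected replicate 3 stood above the controls, and without it the difference was 0.09. Rps20, in the head of the subunit, differed by 0.06 ± 0.17 (SE).

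Rps6, the S6 kinase substrate whose phosphorylation is a common readout of mTOR activity, read from 12.24 to 12.49 in the controls and from 12.12 to 12.70 in the injected samples. Its difference was 0.01 ± 0.19 (SE) with a 95% interval from -0.40 to 0.43, and its sign changed with the scaling (-0.05 on the deposited scaling, -0.23 with centring on array medians). Rps3, at the entry of the message channel, differed by -0.10 ± 0.18 (SE) and Rps4x, an X-linked RNA-binding protein, by -0.29 ± 0.20. The 4 injected values of Rps4x ran from 15.22 to 15.80 and the controls from 15.66 to 15.93, and the groups overlapped.

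**Figure D2:**
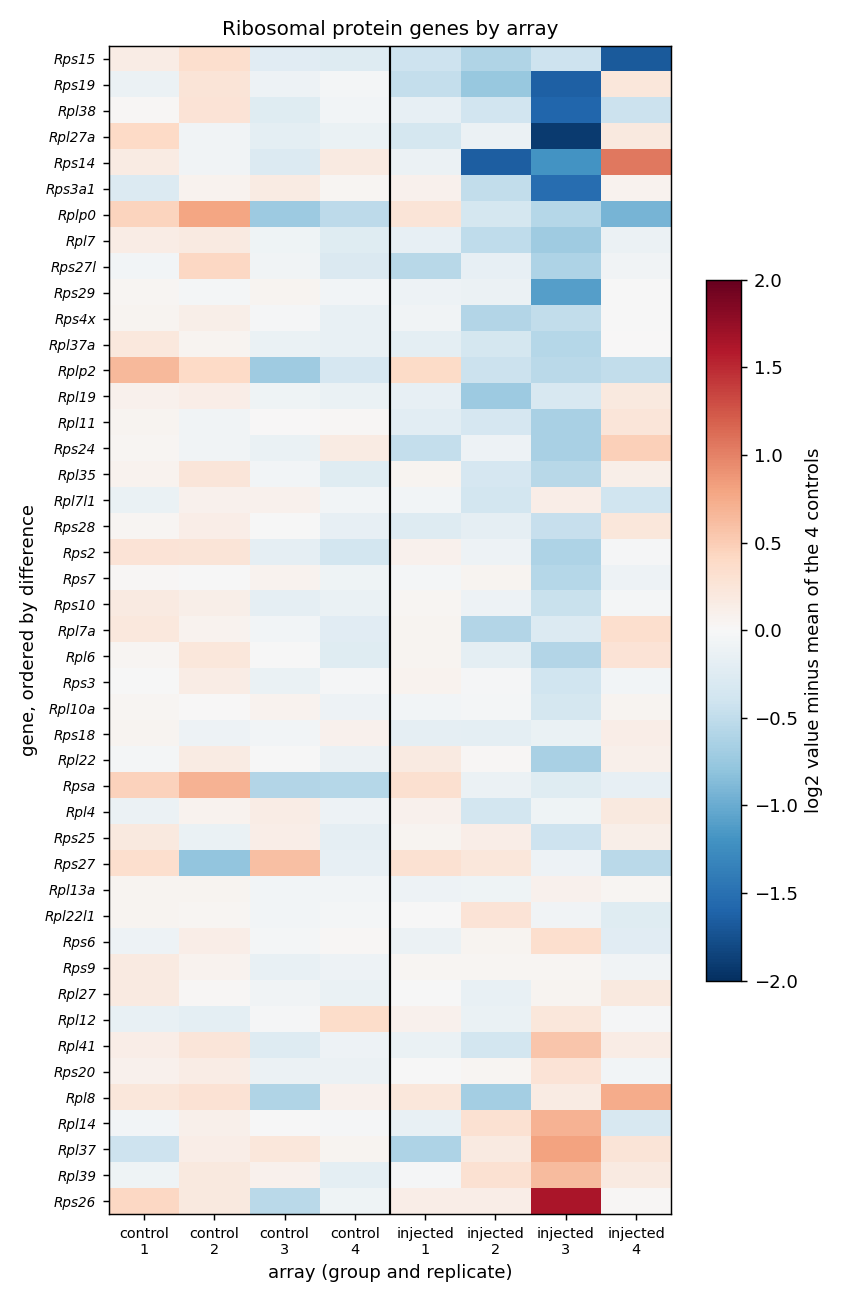
Log2 value of each of the 45 tested ribosomal protein genes on each of the 8 arrays, as the deviation from the mean of the 4 controls (red above, blue below, scale in log2 units), with genes in the order of their difference and a line between control and injected arrays. Injected replicate 3 holds the darkest blue cell (Rpl27a at 9.49) and the darkest red cell (Rps26 at 14.25), while Rps15 is darkest on injected replicate 4 and Rps14 on injected replicate 2.

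Several ribosomal proteins have a paralog, and some of these paralogs can replace them in the ribosome. Rpl22 differed by -0.08 ± 0.22 (SE) and its paralog Rpl22l1, which Rpl22 is known to repress, by -0.01 ± 0.18. Control values of Rpl22l1 ran from 12.74 to 12.85 and injected values from 12.55 to 13.07. Rps27 differed by -0.03 ± 0.33 (SE), and Rps27l, its p53-inducible paralog, by -0.35 ± 0.22 (limma adjusted p = 0.745). Rps27l read 12.09, 12.57, 12.09 and 11.85 in the controls and 11.60, 11.98, 11.54 and 12.09 after injection, with overlapping groups, and its 3 probe sets all had negative differences, from -0.58 to -0.25. Rpl7l1, a paralog of Rpl7, differed by -0.17 ± 0.19 (SE) at the probe set read here and by 0.35 ± 0.20 at a second one. No difference between 2 members of a pair was tested.

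The 4 genes below the filter floor were the paralogs Rpl3l, known from muscle, Rpl39l, known from testis, and Rps4l, with Rps16. Rps16 had only 1 probe set with a single symbol, at 5.03 to 7.92, and its other probe sets carry several symbols and were not read. Rpl3l ran from 4.95 to 7.23 over the 8 arrays and Rpl39l from 6.48 to 9.77. Rps4l read 7.11, 8.86, 7.77 and 8.66 in the controls and 6.57, 5.96, 6.70 and 6.43 in the injected samples, without overlap. In limma without the filter on low signal, its difference was -1.68 ± 0.41 (SE; unadjusted p = 0.00307, adjusted p = 0.605). All injected values of Rps4l and 2 of the 4 control values lay under the floor, where signal is dim.

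Array by array, the 45 genes were lowest as a group in injected replicate 3. Their median deviation from the control mean was 0.06, 0.12, -0.06 and -0.11 in control replicates 1 to 4. It was -0.04, -0.14, -0.41 and 0.02 in injected replicates 1 to 4, so 2 injected samples lay inside the range of the controls. The within-group SD was larger among injected than among control samples for 37 of the 45 genes, with medians of 0.31 and 0.18, and over all tested probe sets for 19602 of 27022, with medians of 0.42 and 0.26. Injected replicate 3 was the lowest array for 20 of the 45 genes and the highest for 9. On it 18 genes lay at least 0.5 below the control mean and 5 at least 0.5 above, so the genes did not all lie on the same side there. These counts were not made over all probe sets. Of 74 mitochondrial ribosomal protein genes, described below, this array was lowest for 20 and highest for 20. It also had the lowest array weight, 0.191. Scaling plays a part, since Rps7 was lowest there at 16.51 after normalisation but highest as deposited, at 142000.

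The same array was lowest in 2 of 3 measures of RNA quality. The signal of the middle against the 3' end of the actin control probe sets was 0.0533 in injected replicate 3 and 0.0945 in injected replicate 2, the other array with a low median, against 0.125 to 0.142 on the other 6. For Gapdh the ratio of 5' to 3' signal was 0.113 in injected replicate 3, from 0.149 to 0.19 in the other injected samples and from 0.214 to 0.298 in the controls. The ratio of 5' to 3' actin signal was 0.0192 in injected replicate 3, inside the range of the controls, 0.0175 to 0.0255, and lowest in injected replicate 2 at 0.0167. The part of RNA quality in the ribosomal protein values was not tested. Median intensity per array ran from 495 in control replicate 4 to 766 in injected replicate 3. Of the fixed retinal markers, 9 of 10 were read, all above the floor, among them Sag at a control mean of 16.32 and Gnat1 at 14.55. All 9 photoreceptor differences were negative, with a median of -0.64. Of these, 5 were lower at a limma unadjusted p under 0.05, against 3.33% of all probe sets, and the smallest adjusted p was 0.482. Their array medians were -0.32, -0.83, -0.99 and -0.23 in injected replicates 1 to 4, lowest on the same arrays as the ribosomal protein genes. All 7 tested microglia and leukocyte genes of 8 listed were positive, with a median of 0.97. At a limma unadjusted p under 0.05, 5 were higher, against 3.66% of all probe sets, and the smallest adjusted p was 0.393. Array medians of the tested genes ran from 0.73 to 1.15 in the injected samples and from -0.24 to 0.34 in the controls. The untested gene, Aif1, was below the floor and went the other way, at -1.17 ± 0.83 (SE) in limma without the filter. The median difference was 2.77 for 4 tested lens genes of 7, -0.93 for 5 pigment epithelium genes of 6 and 0.05 for 2 muscle genes of 5, and both blood markers were below the floor. Lens array medians ran from -1.92 to 2.25 in the controls and from 1.07 to 5.42 in the injected samples. Those of pigment epithelium ran from -0.58 to 1.47 and from -2.26 to -0.24, so the groups overlapped in both lists. In a whole retina fewer cells of a type and less RNA per cell cannot be told apart, and the part of cell composition in the ribosomal protein values was not tested.

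**Figure D3:**
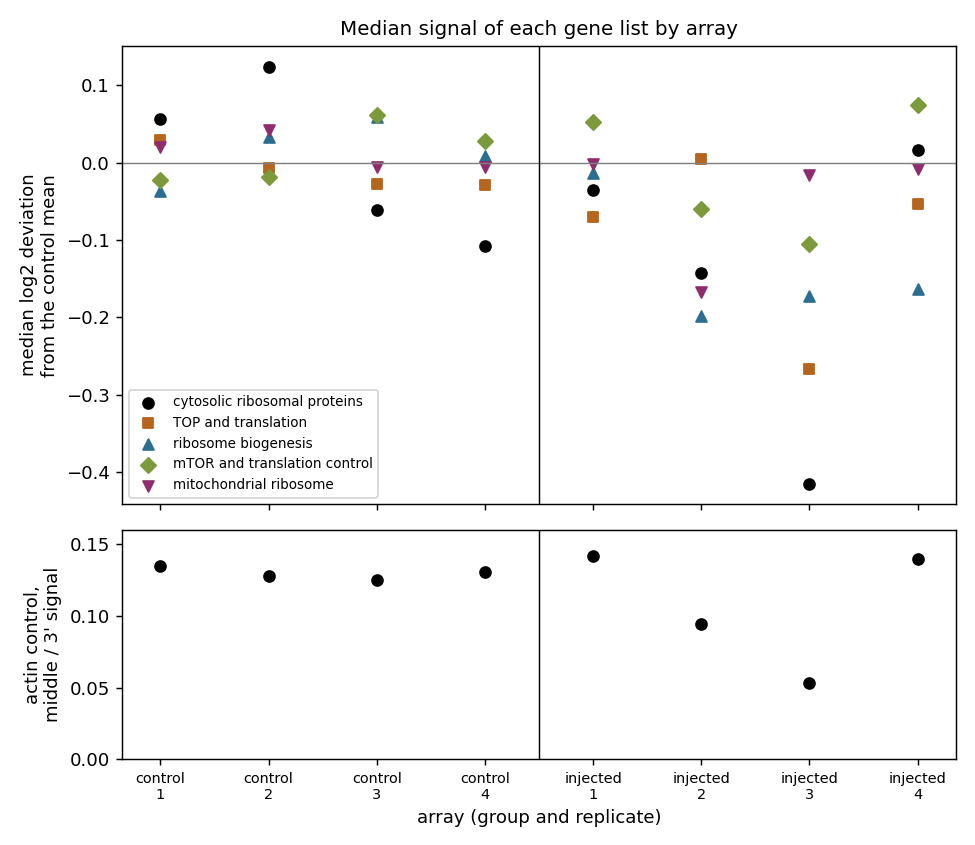
Upper panel: median deviation from the control mean, in log2 units, of the cytosolic ribosomal protein genes and of 4 related gene lists on each of the 8 arrays, 1 point per list and array. Lower panel: middle over 3' signal of the actin control probe sets on the same arrays, where injected replicate 3, at 0.0533, is lowest, as it is for the median of the ribosomal protein genes (-0.41).

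Probe sets of the same gene often differed in sign. This held for 13 of the 20 genes with at least 2 tested probe sets, and the count was not made over all genes. Some of these values lay within their SE of 0, such as those of Rpl22, at -0.084 ± 0.219, 0.074 ± 0.180 and -0.003 ± 0.235 (SE). No difference between probe sets was tested. Over all 91 tested probe sets of the members the median difference was -0.16, with 0 higher and 3 lower at an unadjusted p under 0.05, or 3.3% lower against 3.33% of all tested probe sets. That share is the background. Beside Rps15 these were 1 for Rps10, at -1.17 ± 0.33 (SE; limma unadjusted p = 0.00622, adjusted p = 0.582), and 1 for Rps9, at -0.68 ± 0.23 (SE; limma unadjusted p = 0.0141). At the probe sets read for these genes Rps10 was at -0.14 ± 0.19 (SE) and Rps9 at 0.01 ± 0.16. The 6 probe sets of Rps10 ran from -1.19 to 0.14. By contrast, the 3 for Rps29 lay between -0.33 and -0.20 and the 3 for Rps28 between -0.17 and -0.05. Some probe sets, those with the suffix x_at or s_at, may pick up transcripts of close relatives, and ribosomal protein genes have many processed pseudogenes. The 18 members read from such probe sets had a median difference of -0.17, and the 27 tested on other probe sets -0.11. A further 110 probe sets list several symbols, at least 1 of them a ribosomal protein, and the 104 tested ones had a median of -0.07.

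**Figure D4:**
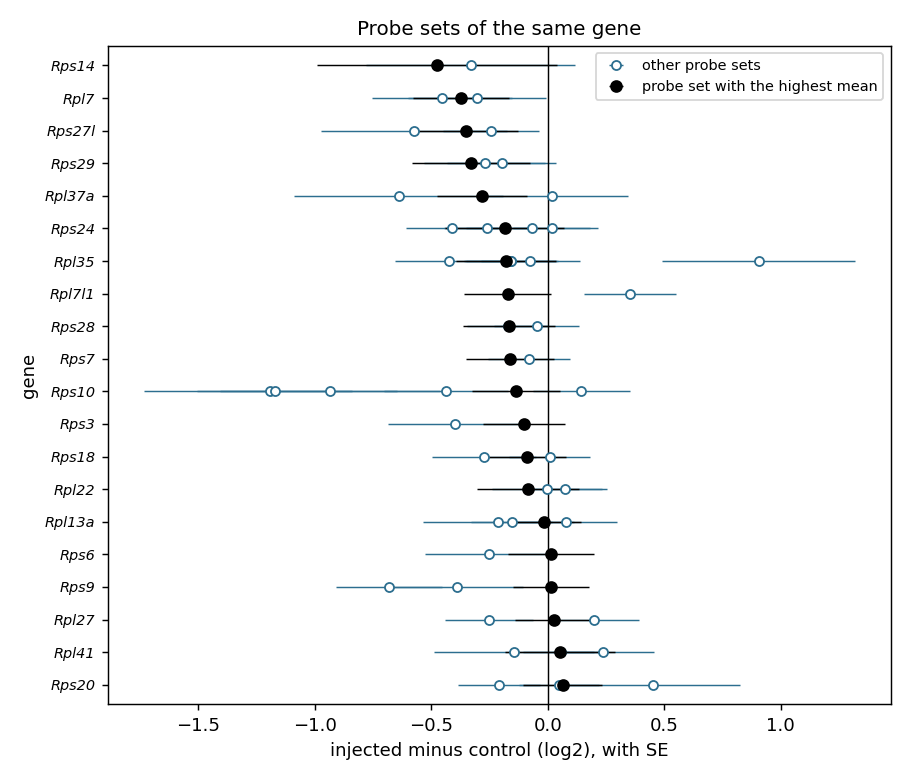
Injected minus control in log2 units, with bars for the SE, for every tested probe set of the 20 ribosomal protein genes that have at least 2. Filled points are the probe sets with the highest mean, and open points lie on both sides of 0 for several genes, with Rps10 reaching -1.19 and Rpl35 0.91.

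Genes that work with the ribosome were read from 4 lists, with 0 at an adjusted p under 0.05 in limma in each. The list of other TOP messages and translation factors had 16 tested genes, 0 at an unadjusted p under 0.05 and a median of -0.12. Its smallest p values were those of Npm1, a nucleolar chaperone, at -0.30 ± 0.21 (SE), Naca, which guards nascent chains at the ribosome, at -0.48 ± 0.35, and the elongation factor Eef1a1 at -0.19 ± 0.22. Naca read from 14.75 to 14.96 in the controls and 14.75, 14.41 and 13.24 in injected replicates 1 to 3, with replicate 4 just above all controls. Without injected replicate 3 the list's median was -0.01 and Naca was at -0.11.

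Ribosome biogenesis was the list with most calls before adjustment, at 3 lower and 0 higher of 23 tested genes, or 13% lower against 3.33% of all probe sets, a median of -0.08 and 15 negative. The groups did not overlap in 2 of them, both lower, or 8.7% against 2.6% of all probe sets. Polr1a, the largest subunit of RNA polymerase I, which makes ribosomal RNA, read 9.50, 9.90, 9.96 and 9.37 in the controls and 8.41, 9.25, 8.64 and 7.89 after injection. All injected values of Polr1a were below all controls, and the difference was -1.14 ± 0.30 (SE; limma unadjusted p = 0.00378, adjusted p = 0.532). Nop58, a core protein of the particles that methylate ribosomal RNA, was at -0.60 ± 0.23 (SE; limma unadjusted p = 0.0265), and nucleolin (Ncl), an abundant nucleolar protein, at -0.38 ± 0.17 (SE; unadjusted p = 0.0483). Nucleolin read from 13.46 to 13.58 in the controls and from 12.92 to 13.26 after injection, without overlap. The list as a whole was not tested.

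The mTOR and translation control list had 0 of 17 tested genes at an unadjusted p under 0.05 and a median of 0.04. Its genes below the floor were Myc, Rps6kb2 and Tsc2. In limma without the filter Myc was at -2.035 ± 0.526 (SE; unadjusted p = 0.00438, adjusted p = 0.639), Rps6kb2 at 0.73 ± 0.51 and Tsc2 at 0.74 ± 0.78. The groups did not overlap for Myc, but all its values lay under the floor of 8.497, where signal is dim. Pdcd4, an inhibitor of translation initiation that S6 kinase marks for degradation, was at -0.37 ± 0.17 (SE; limma unadjusted p = 0.0585), with all injected values, from 14.14 to 14.39, below all controls, from 14.48 to 14.86. The cap-binding protein Eif4e was at 0.35 ± 0.20 (SE), its inhibitor Eif4ebp2 at 0.28 ± 0.22, Mtor itself at 0.21 ± 0.18 and Larp1 at 0.04 ± 0.17. Mitochondrial ribosomal protein genes, which serve a separate ribosome, had a median of -0.11 over 74 tested genes. At a limma unadjusted p under 0.05, 1 was higher and 1 lower, against 3.66% of all probe sets higher and 3.33% lower. The 2 were Mrpl38, at 0.65 ± 0.21 (SE; limma unadjusted p = 0.0124, adjusted p = 0.632), and Mrps16, at -0.46 ± 0.17 (SE; unadjusted p = 0.0254), followed by Mrpl24 at -0.43 ± 0.19. Injected replicate 2 was the 1 array whose median for this list, -0.17, lay apart from the others, which ran from -0.02 to 0.04.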

How the data were processed

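The authors deposited 1 linear intensity per probe set and array, 45101 probe sets on 8 arrays. The software that made them is not given in the sources used here. From the values, the mean after leaving out 2% at each end was 2500 on each array, as scaling to a common target gives, so total RNA cannot be compared. Array medians differed 1.55-fold, and the deposited intensity values were therefore quantile-normalised (limma 3.58.1, R 4.3.3) after leaving out 64 control probe sets, and log2(intensity + 16) was taken, which understates changes of dim genes. Groups came from the sample titles. Injected was compared with control over 27022 probe sets by lmFit and eBayes, 4 arrays each (3.3 prior degrees of freedom). Genes were named from probe sets with 1 annotated symbol, and all 49 members matched RefSeq by Entrez identifier.

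The members, the 4 related lists and the alternatives were chosen with earlier results of these data known. The named genes are the 6 smallest p values in each direction, a fixed set of members (Rplp1, Rpl5, Rps27a, Rpl3, Rpl10 and Rpl10l were in it and were not read), up to 3 genes of each related list, and a few others (Rps14, Rps9, Rps10, Rps28, Rps29, Rpl27a, Rpl35, Rpl7a, Rps3a1, Rps16, Larp1, Mtor) chosen after their values were seen. Rps7 and the dim genes Polr1b, Rrp9, Myc, Rps6kb2 and Tsc2 were likewise named after their values were seen. The fit was tested on 10 simulated data sets with 200 changed probe sets each. At an adjusted p under 0.05 in limma it recovered 15.6% of changes of 1 log2 unit and 67.1% of changes of 2. On average 4.6 of 87.3 calls were false. The simulated noise was independent between probe sets and had the same SD in both groups. In the data the median SD was 0.42 in injected and 0.26 in control samples, so recovery there may differ. The alternatives were other pseudocounts, no filter, other scalings, priors, array weights (statmod 1.5.0), a replicate block, other probe sets and leaving out arrays. The number of arrays limits the precision.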

Additional observations from a re-analysis of the deposited data

Results flagged for a closer look

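In 5 of 80 groups of 4 values checked, 1 sample lay far from the other 3, where chance gives about 1 in 20. Rps26 was at a log2 value of 14.25 in injected replicate 3, and the next injected sample was at 12.75. Rps15 was at 9.64 in injected replicate 4, and the next was at 10.71. Rplp2 was at 13.92 in injected replicate 1, and the next was at 13.11. The elongation factor gene Eef1a1 was at 15.74 in injected replicate 3, and the next was at 16.52. The median deviation of the mitochondrial ribosomal protein list was -0.17 in injected replicate 2, and the next injected sample was at -0.02.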

How the results depend on the processing

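No ribosomal protein gene reached an adjusted p under 0.05 in limma under any of 20 alternative settings, and 0 were higher at an unadjusted p under 0.05 in any. The count of lower genes was 1, and it was 2 without the filter (Rps15 and Rps4l), 3 with arrays centred on their medians (Rpl7, Rps15 and Rps19), 3 with a trended robust prior, 3 with the mean over a gene's probe sets and 0 with the unmoderated test. With a replicate block it was 2 (Rpl38 and Rps15). Deviations of same-numbered samples had correlations of -0.03 to 0.08. Differently numbered samples were not compared in this way, so whether same-numbered samples were paired cannot be told. Leaving out 1 array gave 0 to 2 lower genes, with 0 without control replicate 1 or 2. When both control replicate 2 and injected replicate 3 were dropped, a setting chosen after seeing the data, it was 0. The description of probe sets with several symbols was added then too. The share of all probe sets at an unadjusted p under 0.05 is given here for the main fit only. Whether the counts of lower genes under the alternatives exceed the background therefore cannot be told. With centring the median of all probe sets was itself -0.154. Genes without overlap numbered 1, and 2 without the filter, 5 with centring, 2 with the mean over probe sets, 2 with both arrays left out and 1 to 8 with 1 array left out, where 8 came without injected replicate 4. With fewer arrays more probe sets do not overlap by chance. Without injected replicate 4 the share was 17.8% of members against 11.1% of all tested probe sets, with both arrays left out 4.44% against 11.5%, with centring 11.1% against 5.72%, and with all arrays 2.22% against 5.07%. Without injected replicate 4, a total of 34 of all probe sets passed the adjusted threshold, and with array weights 8, none of them a member. The members' median of -0.120 was -0.278 with centring, -0.064 with array weights, -0.031 with both arrays left out and -0.189 to -0.059 with 1 left out. With centring the medians of the related lists were -0.242 (TOP and translation), -0.257 (biogenesis), -0.130 (mTOR) and -0.275 (mitochondrial). The TOP median was -0.017 with both arrays left out and -0.149 to -0.009 with 1 left out, the mTOR median -0.068 with the mean over probe sets and -0.100 to 0.074 with 1 left out, and the mitochondrial median -0.137 to -0.018 with 1 left out. Of 35 named genes, 14 changed sign in at least 1 setting, in 51 of 698 values. On the deposited scaling these were Rps6 at -0.045, Rps3 at 0.039, Rpl13a at 0.259 and Rps27 at 0.128. With centring they were Rpl14 at -0.106, Rpl8 at -0.137, Rps6 at -0.231 and Rpl13a at 0.073. With array weights they were Rpl37 at -0.080, Rpsa at 0.125, Rps6 at -0.038, Rps3 at 0.002, Rpl22 at 0.091, Rpl22l1 at 0.047 and Rps27 at 0.017. With the mean over probe sets they were Rps6 at -0.121, Rpl7l1 at 0.090 and Eif4ebp2 at -0.027, and without x_at and s_at probe sets Rps20 at -0.210. With both arrays left out they were Rpl14 at -0.027, Rpl37 at -0.013, Rpsa at 0.245, Rps6 at -0.051, Rps3 at 0.044, Rpl22 at 0.156 and Rpl22l1 at 0.027. With 1 array left out, the ranges were -0.270 to 0.014 for Eef1a1, -0.050 to 0.012 for Rpl13a, -0.059 to 0.280 for Rpl14, -0.173 to 0.102 for Rpl22, -0.101 to 0.071 for Rpl22l1, -0.060 to 0.414 for Rpl37, -0.095 to 0.382 for Rpl8, -0.008 to 0.113 for Rps20, -0.290 to 0.172 for Rps27, -0.097 to 0.093 for Rps6 and -0.249 to 0.181 for Rpsa. The causes were not tested. With 4 arrays a group, small differences were not detectable, and members below the filter floor have signals too dim to compare.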
